A study of Mus musculus with 40 samples.

Results

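The comparison described here asked what the Flt3 internal tandem duplication (FLT3-ITD) changed in hematopoietic progenitor cells that were also heterozygous for Runx1. It set 4 libraries of genotype FLT3-ITD/Runx1-HET (written ITD/Runx1-HET) against 4 of genotype Runx1-HET, all from mice 14 days old. The members were chosen by genotype and age, as the labels give them, and make up 8 of the 40 samples of the series and 8 of its 24 libraries at this age. Both groups shared the Runx1-HET genotype, so the groups differed, per the labels, in the FLT3-ITD genotype. Of the other libraries at 14 days, 4 were FLT3-ITD, 4 were wild type, 4 were NUP98-HOXD13 (NHD13) and 4 carried FLT3-ITD with NHD13. These serve to ask whether the effect differed with the background. They were also fitted together with the 8, so they enter the filter on low counts, the scaling and the spread behind each test. The labels give the cells as hematopoietic progenitors or multipotent progenitors. They name no strain, sorting gate, allele, promoter or Cre, and do not say whether the 4 libraries of a group came from separate animals. The tests below thus weigh a difference against the spread of libraries within genotypes over all 24, and that spread may be technical.

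FLT3 is a receptor tyrosine kinase of early progenitors that signals through STAT, RAS-MAPK and PI3K pathways, and its ligand supports the step from multipotent progenitors to lymphoid-primed progenitors. The internal tandem duplication in its juxtamembrane region makes the receptor active without ligand and adds a strong STAT5 signal, and it is among the commonest lesions of acute myeloid leukemia. RUNX1 is the DNA-binding subunit of core-binding factor, a transcription factor needed for blood stem cells to form and, later, for lymphoid and megakaryocytic maturation. Loss of RUNX1 function recurs in acute myeloid leukemia together with FLT3 duplications.

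The 8 libraries held between 16.2 M and 21.7 M counts. Values are given as CPM (read counts scaled to the library total, with TMM factors), and a gene passed where edgeR's quasi-likelihood test gave p under 0.05 after Benjamini-Hochberg adjustment across the 14394 genes tested. The first principal component held 71.8% of the variance of the 8 libraries and separated the groups, and the second, with 10.7%, set ITD/Runx1-HET library 3 (-15.1) apart from the other 3 (11.7, 6.3 and -0.5). Mitochondrial genes took 1.77 to 2.23% of the counts in ITD/Runx1-HET and 1.35 to 1.68% in Runx1-HET. Their part in the results below was not tested. Libraries with more Y-linked than Xist counts numbered 2 of 4 in ITD/Runx1-HET and 1 of 4 in Runx1-HET. The progenitor genes Kit and Cd34 were at means of 608 and 1920 CPM in ITD/Runx1-HET and 940 and 2160 CPM in Runx1-HET, so both groups carried these markers of the labelled cell type.

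FLT3-ITD changed 2140 genes in Runx1-HET progenitors, 14.9% of those tested, of which 963 (6.69%) rose and 1177 (8.18%) fell. The change was at least 2-fold for 873 of them, 448 higher and 425 lower, and the median log2 fold change over all tested genes was -0.005. Every ITD/Runx1-HET library lay above every Runx1-HET library for 8.05% of all genes and below it for 9.86%. Among the genes that fell were most of those of lymphoid priming, 9 of 14 tested genes of a MAPK feedback list and the eosinophil granule genes Prg2, Prg3 and Epx. Those that rose included the STAT5 targets Socs2, Cish, Pim1, Pim2 and Id1, and Timp3, Sparc and Ifitm1. In bulk RNA, fewer cells of a type and less RNA per cell cannot be told apart, and that holds for each gene below.

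**Figure D1:**
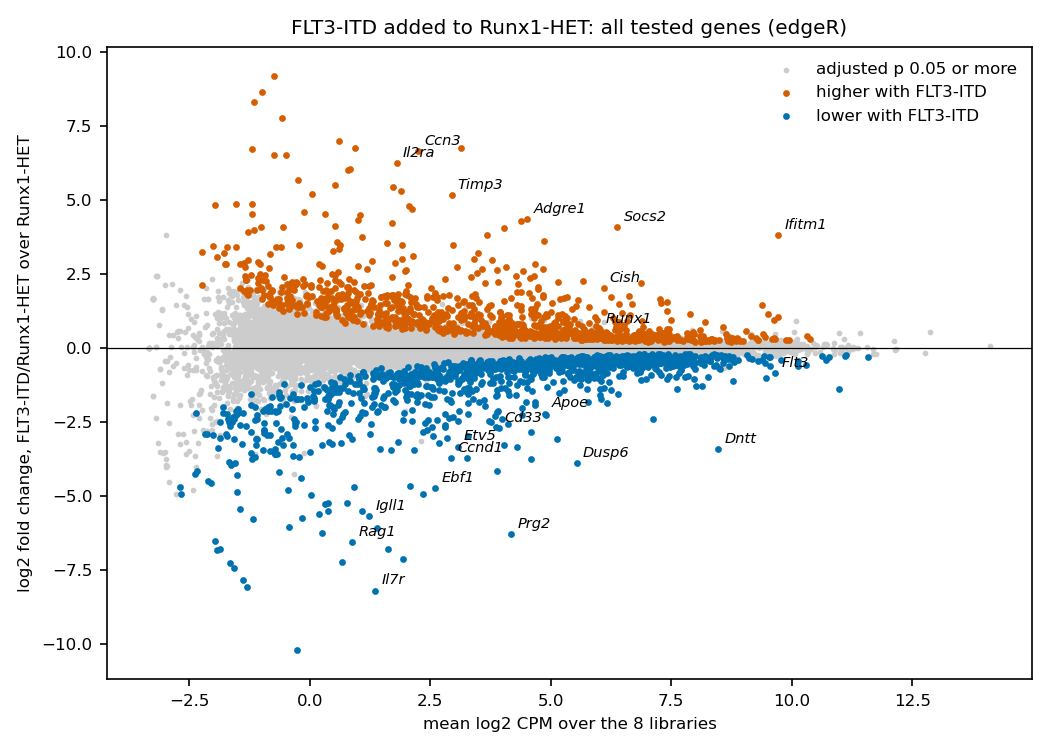
Mean level over the 8 libraries (x axis, log2 CPM) and log2 fold change of ITD/Runx1-HET over Runx1-HET (y axis) for the 14394 tested genes. Orange and blue points are the 963 and 1177 genes that passed; the lymphoid genes Il7r, Rag1 and Ebf1 lie far below 0 and Socs2, Ccn3 and Ifitm1 far above it.

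The targeted genes were read first. Flt3 (chr5:147330741-147400489, GENCODE M21 on GRCm38, matched by gene ID) was at 636, 604, 613 and 554 CPM in ITD/Runx1-HET and at 992, 1200, 1180 and 950 CPM in Runx1-HET. All 4 ITD/Runx1-HET libraries lay below all 4 of Runx1-HET, a log2 fold change of -0.84 ± 0.09 (SE; edgeR adjusted p = 2.3e-08). Runx1 (chr16:92601466-92826149, same build) was at 84.7, 75.9, 77.1 and 81.9 CPM against 46.6, 49.6, 54.5 and 58.1 CPM. It rose by 0.61 ± 0.13 (edgeR adjusted p = 0.00082), without overlap. Counts over a whole gene do not show the duplication or the Runx1 allele, so these levels do not check the genotype labels. The effect on Flt3 was -0.90 on wild type, and the difference of the effects, 0.06 ± 0.12, did not pass (adjusted p = 0.91).

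Most lymphoid priming genes fell. These are genes that multipotent progenitors switch on at low level as they turn toward the B and T lineages: the interleukin 7 receptor, the recombinase RAG1 and RAG2, terminal transferase, the B-lineage factor EBF1 and parts of the pre-B cell receptor. Of 27 listed genes, 23 passed the filter on low counts, 19 fell, and none rose, with a median of -2.41. In the higher direction 1 member had an unadjusted p under 0.05 in edgeR, and DESeq2 called 0. Among all tested genes 8.18% fell. The filter admits a gene through 1 group alone, so the tested genes are not the whole list, and Pax5, Ikzf3, Cd3d and Cd3e had too few counts to test. The tested members that did not pass were Tcf7 (-3.01, adjusted p = 0.072), Cd3g (-2.92, 0.0905), Lck (0.38, 0.0979) and Tcf3 (-0.05, 0.889).

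To show the sequence upstream of these genes, the 250 bases before the RefSeq transcription start are printed for 5 of the lower members, chosen after their values were seen (RefSeq on GRCm38.p6, 5′ to 3′ on the gene's strand). Capitals mark a match on either strand to TGTGGT, a RUNX motif, to CAGGTG, an E-box, or to TTCNNNGAA, a STAT motif, and the matches shown do not overlap.
Il7r (chr15:9529877-9530126, minus strand): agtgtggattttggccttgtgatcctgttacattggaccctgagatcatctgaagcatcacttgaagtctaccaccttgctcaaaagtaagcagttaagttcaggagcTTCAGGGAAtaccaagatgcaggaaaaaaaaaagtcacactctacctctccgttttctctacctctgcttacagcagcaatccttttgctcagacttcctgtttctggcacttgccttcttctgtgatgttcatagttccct
Rag1 (chr2:101649533-101649782, minus strand): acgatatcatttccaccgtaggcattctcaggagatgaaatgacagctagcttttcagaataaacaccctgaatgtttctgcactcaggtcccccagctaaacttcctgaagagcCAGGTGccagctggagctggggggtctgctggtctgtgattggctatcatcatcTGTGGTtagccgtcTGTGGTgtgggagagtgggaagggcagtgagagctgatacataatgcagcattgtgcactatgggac
Cd79a (chr7:24897247-24897496, plus strand): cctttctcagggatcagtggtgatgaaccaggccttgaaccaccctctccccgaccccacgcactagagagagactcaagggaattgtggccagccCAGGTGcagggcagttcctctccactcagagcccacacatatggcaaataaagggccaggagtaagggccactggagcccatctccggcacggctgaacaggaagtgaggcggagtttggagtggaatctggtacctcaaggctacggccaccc
Blnk (chr19:40994222-40994471, minus strand): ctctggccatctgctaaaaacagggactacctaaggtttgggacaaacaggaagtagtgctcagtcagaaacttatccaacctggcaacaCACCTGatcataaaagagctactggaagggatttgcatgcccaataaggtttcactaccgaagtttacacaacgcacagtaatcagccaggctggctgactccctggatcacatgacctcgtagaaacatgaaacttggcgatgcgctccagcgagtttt
Ccr9 (chr9:123766961-123767210, plus strand): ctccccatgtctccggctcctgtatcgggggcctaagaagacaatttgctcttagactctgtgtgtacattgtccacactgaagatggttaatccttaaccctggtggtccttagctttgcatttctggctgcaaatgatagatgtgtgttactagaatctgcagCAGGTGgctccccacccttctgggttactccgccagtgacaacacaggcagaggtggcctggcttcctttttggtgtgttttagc
The E-box letters were found before 9 of the 21 tested lymphoid genes with an entry in the table and before 18.2% of the 10459 tested genes with one. The RUNX letters were found before 5 of the 21 (13.3% of all), and the STAT letters before 3 (7.24% of all). Each of the 5 windows shown holds a match, so they do not stand for the whole list. Of the 17 lymphoid genes with an entry that fell, 7 had the E-box letters, 4 the RUNX letters and 3 the STAT letters. A palindromic EBF motif was found before 0 of the 21 (1.17% of all). The other motifs searched were an IRF repeat (1 of the 21, 3.3% of all), the ETS letters CCGGAAGT (2, 6.71%), the CRE letters TGACGTCA (0, 2.95%) and a sterol response element in a long form (0, 0.0478%) and a shorter form (0, 1.2%). A match describes letters in these windows, and no binding was measured.

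Il7r, the receptor chain on which lymphoid progenitors depend, was at 0, 0.123, 0.149 and 0.176 CPM in ITD/Runx1-HET and at 34.7, 40.8, 28.2 and 29.9 CPM in Runx1-HET. It was close to absent in all 4 ITD/Runx1-HET libraries, a log2 fold change of -8.20 ± 0.53 (edgeR adjusted p = 4.8e-11). Ccr9, a chemokine receptor of thymus-seeding progenitors, was at 0.708, 0.184, 0.199 and 0.117 CPM against 36.2, 29.5, 14.4 and 9.33 CPM, a change of -6.10 ± 0.48 (adjusted p = 4.8e-09). The Runx1-HET libraries spread widely for Ccr9, with libraries 3 and 4 the lowest, yet all lay above ITD/Runx1-HET. Both genes encode receptors by which progenitors read lymphoid signals.

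Antigen-receptor recombination genes fell as well. Rag1 was at 0.142, 0.245, 0.0498 and 0.176 CPM in ITD/Runx1-HET and 15.1, 19.4, 8.73 and 15 CPM in Runx1-HET (-6.56 ± 0.82, edgeR adjusted p = 6.8e-06). Its neighbour on chromosome 2, Rag2, was at 5.29, 6.07, 6.33 and 6.62 CPM against 62.7, 72.1, 59.8 and 54.6 CPM (-3.36 ± 0.28, adjusted p = 9.6e-09). RAG1 and RAG2 act as 1 complex, and neither gene's groups overlapped. Dntt, whose product adds untemplated bases at the joints, was at 103, 145, 95.4 and 95.2 CPM against 1290, 1210, 1110 and 1060 CPM, a change of -3.41 ± 0.21 (adjusted p = 1.8e-10). Dntt was still well detected in ITD/Runx1-HET, at 95.2 CPM or more in every library.

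Genes of the B lineage showed the same direction. Ebf1, which sets up the B-cell program, was at 0.236, 2.51, 1.45 and 1.05 CPM in ITD/Runx1-HET and 41.4, 42.1, 21.4 and 30.9 CPM in Runx1-HET (-4.73 ± 0.70, edgeR adjusted p = 6.7e-05). Cd79a, a signalling chain of the B-cell receptor, was at 0.0472, 0.429, 0.0997 and 0.586 CPM against 39.3, 39.8, 15.8 and 29.1 CPM (-6.81 ± 0.98, adjusted p = 5.1e-05). Blnk, the adaptor below that receptor, was at 0.802, 1.41, 0.747 and 0.645 CPM against 32.2, 32.7, 18.9 and 24.9 CPM (-4.92 ± 0.56, adjusted p = 2.2e-06). No group overlapped the other for these 3 genes, and library 3 was the lowest of Runx1-HET in each. Mzb1, an endoplasmic reticulum protein of B-lineage cells, fell by 4.18 ± 0.49 (edgeR adjusted p = 4.1e-06). The fall was smaller among the more broadly expressed members: Satb1 (-1.36), Notch1 (-1.01), Mef2c (-0.53), Bcl11a (-0.50) and Ikzf1 (-0.30) passed.

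**Figure D2:**
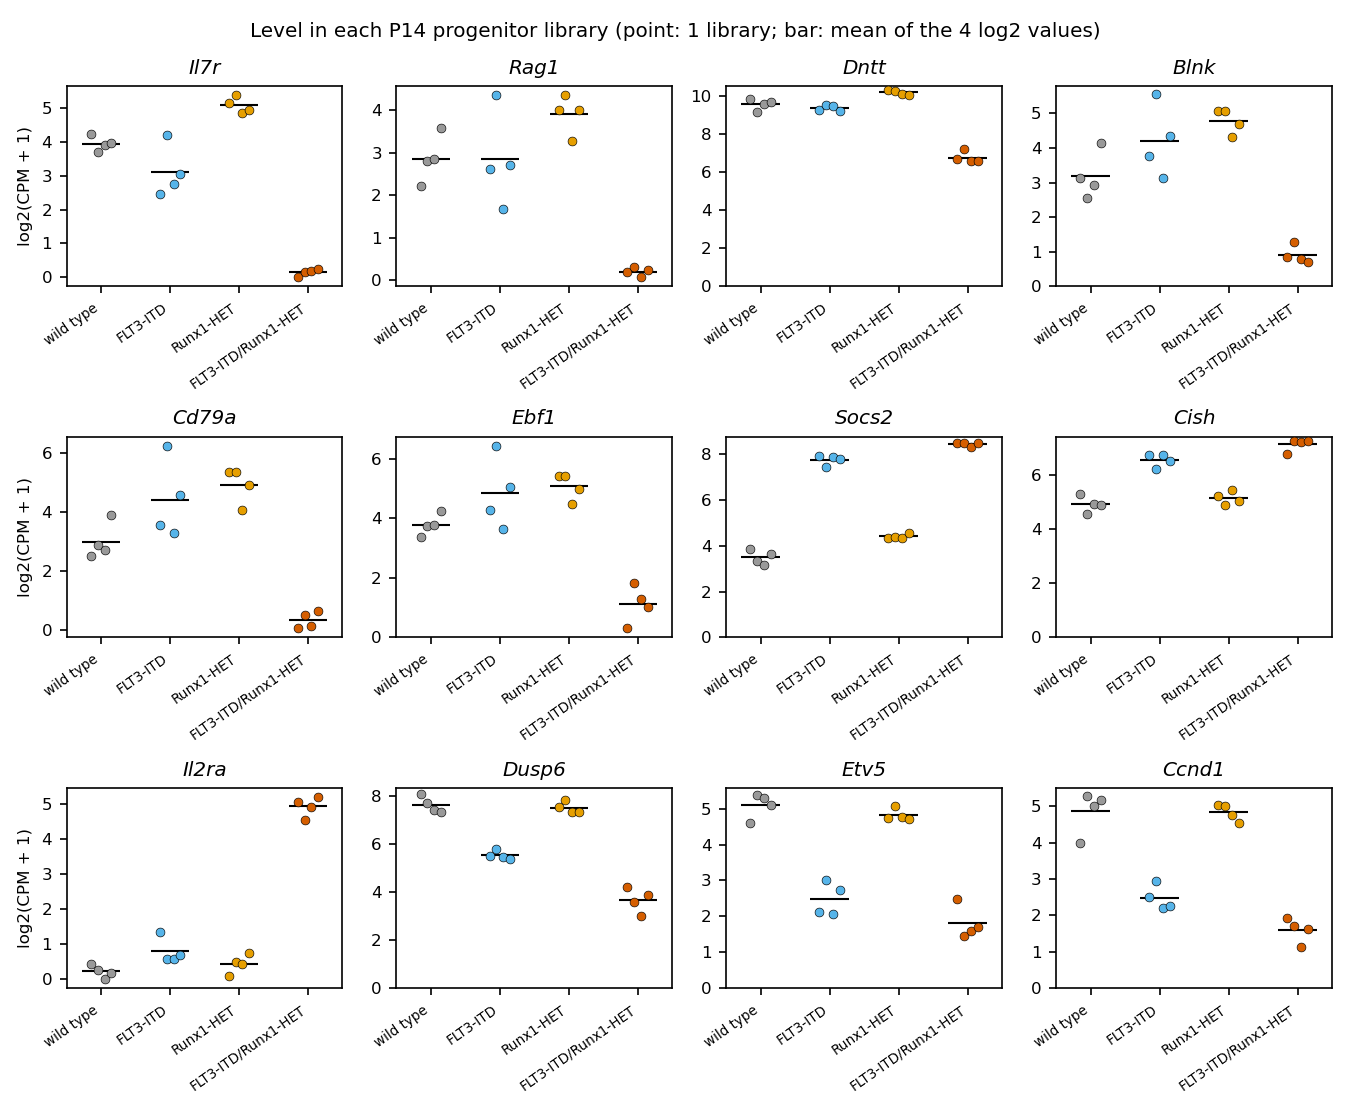
Level of 12 genes in each library of 4 genotypes at 14 days (y axis, log2 of CPM + 1; each point 1 library, bar the mean of the 4 log2 values). The ITD/Runx1-HET libraries lie below the other 3 groups for Il7r, Rag1, Dntt, Blnk, Cd79a and Ebf1, and above them for Il2ra.

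Markers of B, T and NK cells, which a progenitor sample could hold as other cells, were read beside these genes. Cd79a and Ebf1 are in both the B-cell and the lymphoid priming list, so the 2 lists are not independent. Of 10 B-cell markers 7 were tested, and 6 fell, where 8.18% of all genes did. Among the 6 were Cd79a, Ebf1, Ighm and Blk, and the median of the 7 was -4.73. The summed level of the 7 was 336 to 554 CPM in ITD/Runx1-HET and 703 to 1000 CPM in Runx1-HET. Ms4a1, Pax5 and Igkc had too few counts to test. Blk had 0 counts in the 4 ITD/Runx1-HET libraries and 84 in the 4 Runx1-HET libraries, at least 27.2-fold lower against a floor of 3 counts over the group. Of 11 T- and NK-cell markers 7 were tested. Among them Trbc2 (-7.22 ± 0.46), Trbc1, Trac and Klrd1 fell (8.18% of all genes did) and Nkg7 rose (6.69% did). The median was -3.58, or -1.96 with genes at 0 set to their bound. With only the groups compared in the fit, 2 fell, as did 1136 of all 13320 genes tested there. That fit had its own filter on low counts. None of the 4 lower markers was tested there without passing, so the rest of them were left out by that filter. Trac had 0 against 12 counts, at least 3.88-fold lower by the same floor, and Trbc1 had 1 against 35, a ratio of 34.0 (95% exact counting interval 5.71 to 1380). The summed level of these 7 was higher in ITD/Runx1-HET (269 to 392 CPM) than in Runx1-HET (159 to 181 CPM), with Nkg7 at 216 to 349 CPM the most abundant. The defining T-cell genes Cd3d, Cd3e and Cd8a had too few counts to test. The part of such cells in the lymphoid result was not tested.

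The effect on these genes differed where FLT3-ITD was added to wild type, a comparison that shares no library with the one above. There FLT3-ITD changed 1238 genes (8.6% of those tested), 553 higher and 685 lower. Of the 23 lymphoid genes 1 rose (3.84% of all genes) and 6 fell (4.76% of all genes), with a median of -0.22. The difference of the effects, tested over all genes, passed for 242 genes (1.68%), 93 higher and 149 lower on Runx1-HET. It passed for 12 of the 23 lymphoid genes, all more negative on Runx1-HET, where 1.04% of all tested genes were. All 4 FLT3-ITD libraries and 1 of 4 wild-type libraries had more Y-linked than Xist counts. With a sex term in the fit the wild-type comparison called 691 genes and the difference called 201. Without wild-type library 3 the wild-type comparison called 767, and without ITD/Runx1-HET library 3 the difference called 401.

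The levels in all 4 genotypes show where these differences lie. Il7r was at 14.6 ± 2.39 CPM in wild type and 8.8 ± 6.01 CPM in FLT3-ITD (SD, n = 4 each), against 33.4 ± 5.65 in Runx1-HET and 0.112 ± 0.0777 in ITD/Runx1-HET. The difference of the effects on Il7r was -7.46 ± 0.65 (edgeR adjusted p = 4.5e-07). Runx1-HET was thus the highest of the 4 groups for Il7r and ITD/Runx1-HET the lowest. Ebf1 was at 9.21, 12.3, 12.8 and 18.1 CPM in wild type and 18.5, 84.5, 11.3 and 32.4 CPM in FLT3-ITD, where library 2 stood far above the others. Its effect was 1.49 on wild type, which did not pass (adjusted p = 0.11), and the difference was -6.22 ± 0.89 (adjusted p = 0.00045). FLT3-ITD library 2 was also the highest of its group for Cd79a (73.4 CPM), Blnk (45.7), Rag1 (19.3) and Rag2 (61.6). Without it the difference of effects called 168 genes.

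Dntt differed between the backgrounds with less spread. It was at 771 ± 154 CPM in wild type and 663 ± 65.4 CPM in FLT3-ITD (SD, n = 4 each), an effect of -0.22, and the difference was -3.19 ± 0.28 (edgeR adjusted p = 5.9e-07). Rag2 (-3.67 ± 0.38), Blnk (-6.18 ± 0.72), Cd79a (-8.76 ± 1.19), Rag1 (-6.84 ± 1.01) and Ccr9 (-3.79 ± 0.61) passed the same test. Ccr9 also fell on wild type (-2.31, adjusted p = 4.9e-05), from 65.7 to 13.2 CPM. Flt3, Lax1 and Bcl11a fell on both backgrounds, and their differences (0.06, -0.12 and -0.00) did not pass. On NHD13, FLT3-ITD raised 1 (2.65% of all genes) and lowered 4 (3.58% of all genes) of the 23 lymphoid genes, with a median of 0.04. The difference from the effect on Runx1-HET passed for 15 of them, all lower on Runx1-HET, as were 2.16% of all genes.

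**Figure D3:**
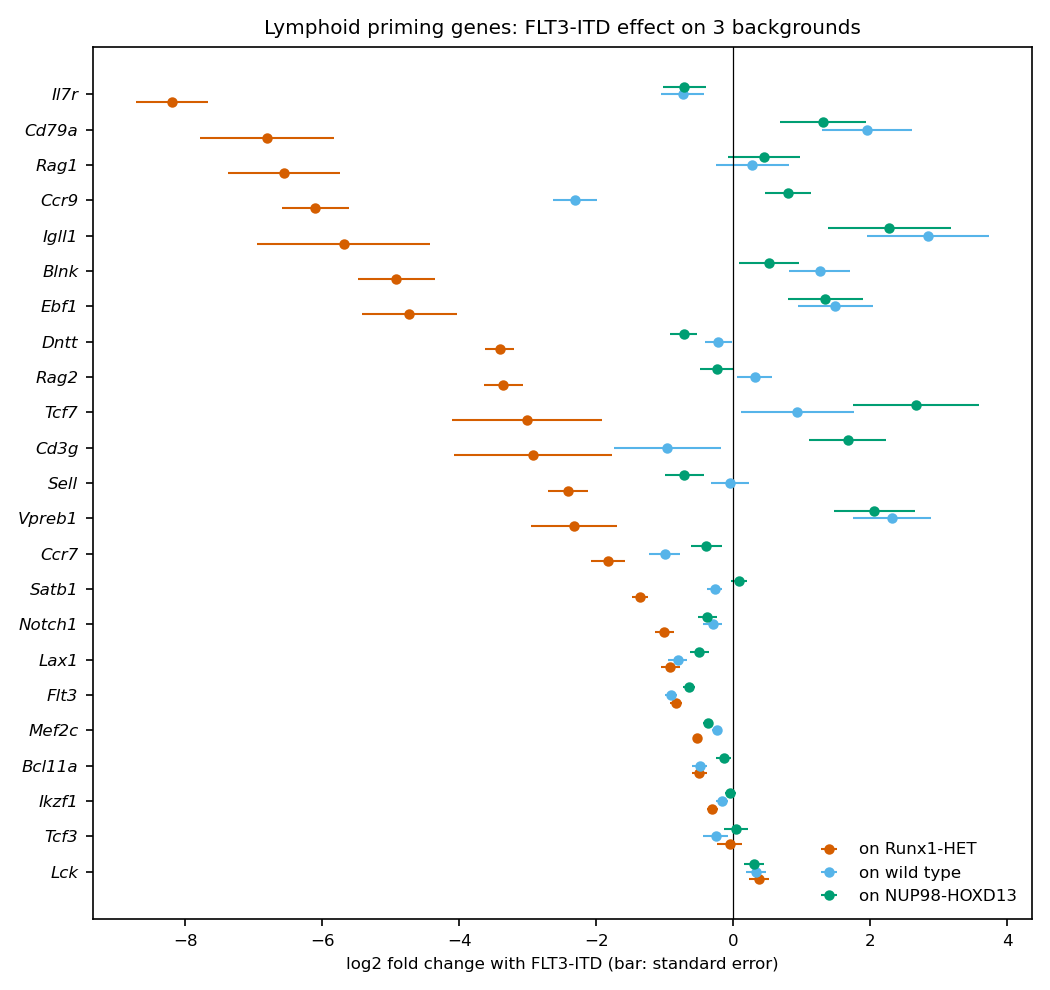
Log2 fold change with FLT3-ITD (x axis; bars are standard errors) of the 23 tested lymphoid priming genes on Runx1-HET, wild type and NUP98-HOXD13, ordered by the effect on Runx1-HET. On Runx1-HET 19 fell; the points for Il7r, Cd79a, Rag1 and Ebf1 lie far to the left of those on the other backgrounds, while those for Flt3 and Lax1 lie close together.

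STAT5 targets moved the other way. All 15 listed genes were tested, of which 6 rose and 2 fell, with a median of 0.96, where 6.69% of all tested genes rose and 8.18% fell. Socs2, a feedback inhibitor of cytokine signalling, was at 353, 350, 315 and 354 CPM in ITD/Runx1-HET and 19.4, 19.9, 19.1 and 22.3 CPM in Runx1-HET (4.09 ± 0.23, edgeR adjusted p = 3.8e-11). Cish, of the same family, was at 107, 148, 147 and 151 CPM against 35.8, 28.2, 42.4 and 31.2 CPM (2.01 ± 0.15, adjusted p = 4.8e-11). Neither gene's groups overlapped. The kinase genes Pim2 (2.05 ± 0.19) and Pim1 (1.13 ± 0.14) and the bHLH inhibitor Id1 (1.88 ± 0.23) also rose, while Bcl6 (-1.71 ± 0.42) and Ccnd2 (-0.38 ± 0.09) fell. STAT5 is known to repress Bcl6, but STAT5 activity was not measured here, and its part in these changes was not tested.

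Il2ra, the alpha chain of the interleukin 2 receptor and a STAT5 target, stood out by background. It was at 32.1, 22.4, 28.9 and 35.4 CPM in ITD/Runx1-HET and at 0.0619, 0.414, 0.353 and 0.677 CPM in Runx1-HET (6.24 ± 0.47, edgeR adjusted p = 2.3e-10). In FLT3-ITD it was at 1.53, 0.487, 0.478 and 0.616 CPM and in wild type at 0.352, 0.204, 0 and 0.14 CPM. The 4 ITD/Runx1-HET libraries were the only ones of these 16 above 2 CPM, and the difference of the effects was 4.0 ± 0.95 (adjusted p = 0.025), a call lost without a filter on low counts (0.0592) and without wild-type library 1 (0.194), 2 (0.0864) or 4 (0.053). Pim2 also rose more on Runx1-HET (difference 1.51 ± 0.26, adjusted p = 0.00071). For Socs2 and Cish the differences, -0.28 ± 0.31 and 0.36 ± 0.20, did not pass (adjusted p = 0.8 and 0.53).

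Genes of the MAPK feedback list, which holds pathway targets and a RAS activator beside feedback regulators, were mostly lower. Of 16 listed genes 14 were tested, 9 fell and 2 rose, with a median of -1.23, where 8.18% of all genes fell and 6.69% rose. Dusp6, the phosphatase that removes the activating phosphates from ERK, was at 17.6, 11.1, 6.98 and 13.8 CPM in ITD/Runx1-HET and 185, 225, 163 and 163 CPM in Runx1-HET (-3.89 ± 0.29, edgeR adjusted p = 5.9e-09). Etv5, an ETS factor induced by ERK, was at 4.62, 1.72, 2.04 and 2.29 CPM against 25.8, 32.3, 26.2 and 25.4 CPM (-3.34 ± 0.26, adjusted p = 2.7e-10). Both genes' groups were far apart. Etv1 (-2.71), Spry4 (-2.75), Dusp4 (-2.97), Spred2 (-1.56), Spry1 (-1.37), Spry2 (-1.09) and Rasa3 (-0.84) fell too. The exceptions were Dusp5 (1.15 ± 0.20) and Rasgrp1, a RAS activator with 310 counts in ITD/Runx1-HET and 1 in Runx1-HET (ratio 319, 95% exact counting interval 56.9 to 12700).

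On wild type 9 MAPK genes fell and 2 rose as well (median -1.09), where 4.76% of all genes fell and 3.84% rose. The difference of the effects passed for 1 of the 14, against 1.68% of all genes: Dusp6 (-1.75 ± 0.37, edgeR adjusted p = 0.016). Dusp6 was at 46 ± 6.08 CPM in FLT3-ITD and 203 ± 50 CPM in wild type (SD, n = 4 each). Immediate early genes, which respond to the same signals within minutes, included 13 tested members of 16. Of these 5 fell (8.18% of all genes) and 1 rose (6.69%), with a median of -0.95: Egr1 (-2.17 ± 0.43), Nr4a1 (-1.37), Zfp36 (-1.12), Btg2 (-0.98) and Klf6 (-0.45) were lower and Jund (0.75) higher. Of the 13, none had an effect that passed edgeR's test of the difference between the 2 backgrounds, with 2 at an unadjusted p under 0.05 and 1 called by DESeq2. Jund lost its call in 8 other settings.

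Members of the FLT3 signal chain itself were lower or did not pass. Of 25 tested members of 26, 10 fell, where 8.18% of all genes did, and none rose (median -0.25; in the higher direction 1 at an unadjusted p under 0.05 in edgeR and 0 in DESeq2), the most reduced being the kinase Syk (-0.78 ± 0.11), the adaptor Sh2b3, which restrains cytokine signalling (-0.60 ± 0.14), Pik3cg (-0.57 ± 0.09) and Stat3 (-0.54 ± 0.10). Syk was at 90.5, 93.9, 101 and 68.5 CPM in ITD/Runx1-HET and 161, 155, 164 and 127 CPM in Runx1-HET. Stat5b fell (-0.42), and Stat5a was at -0.19 (adjusted p = 0.28).

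Among 27 cytokine receptor genes, all tested, 15 fell (8.18% of all genes) and 2 rose (6.69% of all genes), with a median of -0.31. With a library left out 11 to 14 fell, and with a sex term 13 did. Beside Il7r and Ccr9, the lower ones included Il1rl1 (-2.55 ± 0.60), the angiopoietin receptor Tek (-2.29 ± 0.26), the erythropoietin receptor Epor (-1.92 ± 0.35), Csf1r, Csf3r, Kit and the interferon receptor chains Ifnar1, Ifnar2, Ifngr1 and Ifngr2. Il18r1, the interleukin 18 receptor, was at 9.77, 15.7, 12.5 and 11.9 CPM against 0.928, 1.75, 0.707 and 0.99 CPM (3.49 ± 0.30, edgeR adjusted p = 7.7e-10). Csf2rb, the shared beta chain for interleukin 3 and GM-CSF, rose by 0.48 ± 0.11. Il18r1 rose more on Runx1-HET than on wild type (difference 1.85 ± 0.39, adjusted p = 0.0068).

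**Figure D4:**
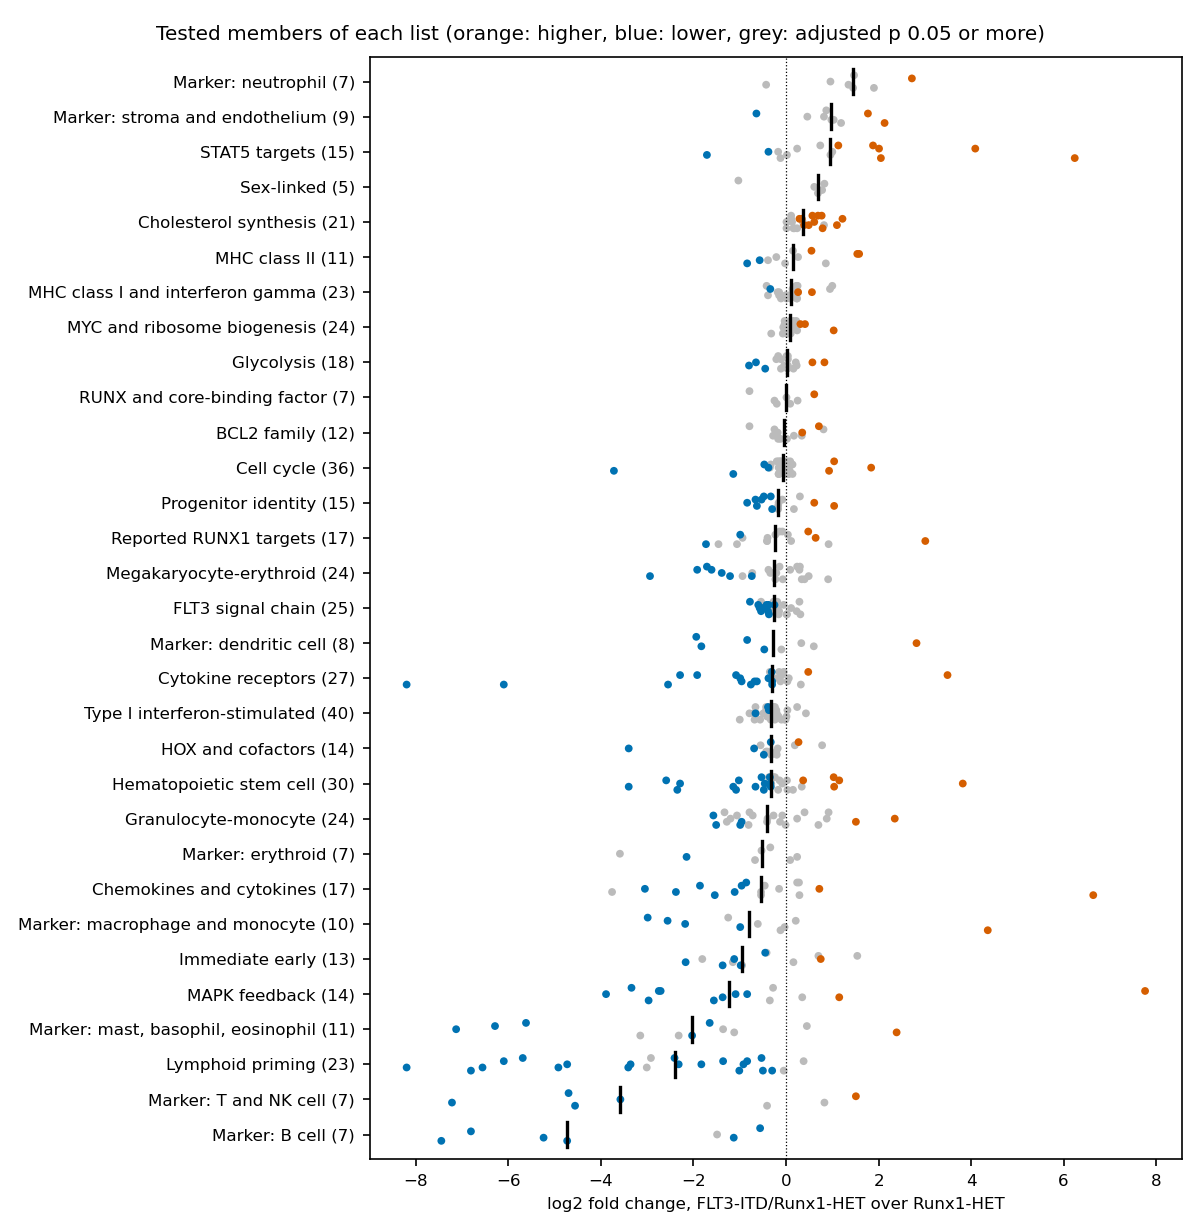
Log2 fold change of ITD/Runx1-HET over Runx1-HET (x axis) for the tested members of each gene list (number tested in brackets), ordered by the median (black bar); the dotted line is the median of all genes. Orange and blue points passed; the lymphoid, B-cell and MAPK feedback lists lie left of the line and the STAT5 and cholesterol lists right of it.

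Stem-cell genes went both ways. All 30 were tested, 14 fell and 5 rose (median -0.33), against 8.18% and 6.69% of all genes. With a library left out 10 to 13 fell and 4 to 5 rose, and with a sex term 12 fell and 4 rose. Ifitm1, an interferon-inducible membrane protein, was at 2950, 3120, 3290 and 3380 CPM in ITD/Runx1-HET and 274, 220, 208 and 202 CPM in Runx1-HET. This was the smallest adjusted p of the comparison (3.82 ± 0.12, edgeR adjusted p = 1.3e-19). Ifitm3 (1.15 ± 0.13), Mycn (1.03 ± 0.17), the cell-cycle inhibitor Cdkn1c (1.04 ± 0.21) and Prdm16 (0.37) also rose. Hoxb5 had 3 counts against 38 (12.3-fold lower, 95% exact counting interval 3.9 to 62.3), and Trpc6 (-2.59 ± 0.44), Ndn (-2.35 ± 0.26), Tek, Slamf1 (-1.14), Robo4 (-1.08) and Gimap6 (-1.02) fell. Among 15 genes of progenitor identity 7 fell and 2 rose, where 8.18% and 6.69% of all genes did. Flt3, Gata2 (-0.66), Kit (-0.63), Ly6a (-0.53), Hoxa9 (-0.48), Meis1 (-0.33) and Ikzf1 (-0.30) fell, and Cd48 (1.04 ± 0.14) and Runx1 rose. Cd48, carried by progenitors more than by stem cells, was at 1080, 1240, 1310 and 1200 CPM against 543, 549, 575 and 684 CPM.

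Granulocyte-monocyte genes showed no common direction. Of 24 tested, 2 rose and 4 fell (median -0.41), where 6.69% of all genes rose and 8.18% fell. Ctsg, a granule protease, was at 33.8, 47.2, 106 and 45.3 CPM against 7.86, 6.63, 11.6 and 19.7 CPM (2.35 ± 0.40, edgeR adjusted p = 0.00035), and Nkg7 rose by 1.51 ± 0.24. Csf1r, the receptor for M-CSF, was at 14.5, 15.5, 25.4 and 13.2 CPM against 31.2, 35, 42.4 and 28 CPM (-0.99 ± 0.17, adjusted p = 0.00013). On wild type Csf1r rose (0.95, from 27.9 to 53.8 CPM), and the difference of the effects was -1.94 ± 0.24 (adjusted p = 1.6e-05). Fcgr3 (-1.51) and Csf3r (-0.96) also fell on Runx1-HET. Cebpd, with 14 counts against 44, was at -1.57 (adjusted p = 0.045) and lost its call in 11 other settings, among them the replicate block (adjusted p = 0.0565) and DESeq2 (0.103). The effects on Csf1r, Irf8 (difference -1.38) and Ly86 (-3.62) were more negative than on wild type, as were those on 1.04% of all genes, and without ITD/Runx1-HET library 3 there were 5 such members. On wild type 7 of the 24 rose (3.84% of all genes) and none fell, with 2 lower at an unadjusted p under 0.05. Without ITD/Runx1-HET library 1, 5 rose on Runx1-HET.

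Myeloid markers of other cells gave mixed values. Of 12 macrophage and monocyte markers 10 were tested (median -0.80). Of these 4 fell (Csf1r, C1qa, C1qb and Vcam1) and 1 rose, where 8.18% and 6.69% of all genes did. The 1 that rose was Adgre1, the F4/80 antigen, at 91.8, 85.8, 111 and 134 CPM against 3.9, 6.82, 3.58 and 6.1 CPM (4.36 ± 0.27, edgeR adjusted p = 2.3e-11). With Adgre1 included the list summed to 159 to 222 CPM against 118 to 138 CPM. Cd14 and Marco had too few counts to test, and C1qb was at 0.449 to 1.37 CPM against 4.44 to 7.74 CPM. Of 11 dendritic-cell markers 8 were tested, 4 fell (8.18% of all genes) and 1 rose (6.69%), Clec10a (2.82 ± 0.22). The dendritic-cell list summed to 953 to 1030 against 1380 to 1630 CPM, mostly Flt3 and Tcf4. Of 11 neutrophil markers 7 were tested and 1 passed, in the higher direction (6.69% of all genes). This was lactoferrin (Ltf), at 25.6, 23.1, 13.8 and 25.6 CPM against 5.57, 3.45, 1.82 and 2.66 CPM (2.72 ± 0.43, edgeR adjusted p = 0.00011). The neutrophil list summed to 34.8 to 61.8 CPM against 15.9 to 21.3 CPM. With only the groups compared in the fit 5 of the 7 rose, as did 932 of all 13320 genes tested there. Outside the comparison, the list summed to 148 CPM in wild-type library 2 and 76.6 CPM in FLT3-ITD library 2. The other libraries of those groups were at 14.3 to 45.3 CPM. The part of these libraries in the lower count of the full fit was not tested. The part in the myeloid genes of cells that carry these markers was not tested either.

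Eosinophil granule genes fell and varied widely between libraries. Prg2, the eosinophil major basic protein, was at 7.98, 1.72, 1.1 and 2.17 CPM in ITD/Runx1-HET and 450, 436, 9.79 and 151 CPM in Runx1-HET (-6.29 ± 1.34, edgeR adjusted p = 0.0029). Runx1-HET library 3 lay close to the ITD/Runx1-HET libraries, although the groups did not overlap. Epx (-7.13 ± 1.71) and Prg3 (-5.62 ± 1.10) were low in the same library, at 1.11 and 0.555 CPM. Of 12 mast-cell, basophil and eosinophil markers 11 were tested, 5 fell (8.18% of all genes) and 1 rose (6.69%), Mcpt8 (2.39 ± 0.40). The list summed to 39.8 to 50.5 against 90.8 to 702 CPM. Prg2 also fell on wild type (-4.92, adjusted p = 0.014).

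Megakaryocyte and erythroid genes fell or did not pass. Of 26 listed 24 were tested, 7 fell (8.18% of all genes) and none rose (median -0.25). In the higher direction 3 had an unadjusted p under 0.05 in edgeR and DESeq2 called 1. Gata1, the master factor of these lineages, was at 5.66, 4.91, 6.93 and 5.63 CPM against 13.9, 21.4, 22 and 18.6 CPM (-1.71 ± 0.19, edgeR adjusted p = 1.5e-07). Its effect on wild type was -0.02, and the difference, -1.70 ± 0.27, passed (adjusted p = 0.00033). Epor, Car1 (-2.94 ± 0.84), Car2 (-1.39 ± 0.10), Mfsd2b (-1.61 ± 0.27), Treml1 (-1.21) and Gp9 (-0.74) fell as well. Of 7 tested erythroid markers 1 fell (8.18% of all genes), Epb42, and their sum was 129 to 223 CPM against 110 to 224 CPM. Of 9 tested stromal and endothelial markers Dcn and Col3a1 rose (6.69% of all genes did) and Pecam1 fell (8.18% did). Dcn and Col3a1 were highest in ITD/Runx1-HET library 2, the groups overlapped for both, and without that library neither passed. Epb42 lost its call in 7 other settings.

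Of 36 cell-cycle genes 3 rose and 4 fell (median -0.08), shares near the 6.69% and 8.18% of all genes. Without ITD/Runx1-HET library 1 the lower ones numbered 2, and without library 3 they numbered 6. Ccnd1, the D-type cyclin downstream of MAPK signals, was at 2.83, 2.27, 1.2 and 2.11 CPM against 31.8, 30.8, 26 and 22.2 CPM (-3.72 ± 0.27, edgeR adjusted p = 1.6e-10). Cdk6 rose from 474, 524, 552 and 765 CPM to 970, 1140, 1150 and 1160 CPM (0.93 ± 0.13, adjusted p = 1.1e-05), and the inhibitors Cdkn1a (1.84 ± 0.18) and Cdkn1c rose. Mki67 (-0.16, adjusted p = 0.52) and Top2a (-0.13, 0.36) did not pass. In the BCL2 family 2 of 12 tested genes rose (6.69% of all genes), Bcl2 (0.71 ± 0.14) and the death effector Bax (0.35 ± 0.08). Of 24 MYC and ribosome genes 3 rose (Mycn, Nme1 and Npm1), where 6.69% of all genes did, compared with 12 on wild type, where 3.84% did. The difference of the effects passed for 1 member, Myc (-0.77), and for none with a sex term in the fit or without FLT3-ITD library 2.

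Cholesterol synthesis genes rose in part. All 21 were tested, and 11 rose (6.69% of all genes) with none falling, also at an unadjusted p under 0.05 in edgeR and in DESeq2 (median 0.36), including the mevalonate pathway enzyme Mvd (1.22 ± 0.17), the sterol sensor Insig1 (0.77 ± 0.20), Sqle (0.69) and Fdps (0.57). Mvd was at 26.8, 21, 24.2 and 22.6 CPM against 11.3, 11.5, 10.3 and 7.5 CPM (edgeR adjusted p = 3.3e-06), without overlap. On wild type 10 of the 21 rose (median 0.39; 3.84% of all genes), and for 0 of the 21 did the difference of the effects pass, by edgeR, by DESeq2 or at an unadjusted p under 0.05. Of 18 glycolysis genes 2 rose and 3 fell (6.69% and 8.18% of all genes), among them the glucose transporter Slc2a3 (-0.80 ± 0.14) and Ldhb (-0.65 ± 0.09).

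None of the listed type I interferon-stimulated genes passed as higher on Runx1-HET. The list does not hold the interferon-inducible genes Ifitm1 and Ifitm3, which rose, as given above. All 40 listed genes were tested, and 3 fell (Irf9, Ifit2 and Parp14), with a median of -0.32, a share near the 8.18% of all genes. In the higher direction 0 had an unadjusted p under 0.05 in edgeR and DESeq2 called 0. Irf9, a subunit of the interferon-activated factor ISGF3, was at 110, 151, 194 and 116 CPM against 224, 178, 259 and 241 CPM (-0.66 ± 0.18, edgeR adjusted p = 0.012), and the groups overlapped through ITD/Runx1-HET library 3. Without that library 9 of the 40 fell, and without Runx1-HET library 3 none did. On wild type 6 rose, where 3.84% of all genes did, and none fell (median 0.42), and the difference of the effects passed for 2 members, Oas1g (-1.81) and Ifi27l2a (-1.81). That count was 0 without Runx1-HET library 3 and 7 without ITD/Runx1-HET library 3. Oas1g shares sequence with other Oas1 genes, so its counts are uncertain. Among MHC class I and interferon gamma genes 2 of 23 rose and 1 fell, where 6.69% and 8.18% of all genes did. Neither count held: both were 0 with the replicate block, 1 rose and none fell with a sex term, and with a library left out 0 to 2 rose and 0 to 3 fell. Of 11 MHC class II genes 3 rose and 2 fell, where 6.69% and 8.18% of all genes did. H2-Aa (1.58 ± 0.34), H2-Eb1 and H2-Ab1 rose (1 to 4 with a library left out), and H2-Ob (-0.84 ± 0.13) and H2-DMb1 (-0.57 ± 0.11) fell.

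Among the genes whose mean log2 CPM reached 2, the highest fold changes included Ccn3, Timp3 and Sparc. Ccn3, a secreted growth regulator also called Nov, was at 47.3, 47.7, 42.6 and 46.8 CPM against 0.371, 0.138, 0.404 and 0.938 CPM (6.64 ± 0.42, edgeR adjusted p = 2e-11). Timp3, an inhibitor of matrix metalloproteinases, was at 42.7, 53, 47 and 46.1 CPM against 0.804, 0.691, 2.52 and 1.2 CPM (5.16 ± 0.44, adjusted p = 1.6e-08). Sparc, a matrix glycoprotein, was at 87.8, 101, 82.3 and 94.5 CPM against 6.06, 4.65, 3.84 and 4.27 CPM (4.29 ± 0.50, adjusted p = 3.3e-06). The ITD/Runx1-HET libraries agreed closely in each, and the groups did not overlap. Emilin2 (4.81 ± 0.41), Tspan7 (4.04 ± 0.34), Mboat2 (3.82 ± 0.24) and the transcription factor Bhlhe40 (3.59 ± 0.22) rose in the same way. Tcrg-C1, a T-cell receptor gamma constant segment, rose by 6.74 ± 0.32, but near-identical copies make its counts uncertain.

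Cd33 and Apoe were among the genes that fell with the smallest adjusted p. Cd33, a sialic-acid-binding receptor of myeloid cells, was at 5.85, 4.05, 6.78 and 7.15 CPM against 48.1, 44.2, 35.7 and 28.7 CPM (-2.71 ± 0.17, edgeR adjusted p = 2.7e-12). Apoe was at 15.7, 13.8, 13.1 and 11.9 CPM against 68.8, 65.2, 63.2 and 57.6 CPM (-2.23 ± 0.15, adjusted p = 1.4e-11). Both were lower in each ITD/Runx1-HET library than in any of Runx1-HET. Gfra1 (-4.66 ± 0.38), Sdc4 (-3.75 ± 0.30), Postn (-3.73 ± 0.31), Cmah (-3.47 ± 0.28), Gem (-3.09 ± 0.18), Sstr2 (-2.46 ± 0.15) and Cd93 (-1.05 ± 0.07) fell as well. Of the chemokines and cytokines 17 of 22 were tested, 7 fell and 2 rose (8.18% and 6.69% of all genes). The lower ones included Inhba (-3.05 ± 0.61), Ccl4 (-2.38 ± 0.26), Il12a (-1.86 ± 0.16) and Ccl3 (-1.54 ± 0.37).

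Over all genes, the effects on the 2 backgrounds overlapped in part. Of the 2140 genes changed on Runx1-HET, 722 (33.7%) were also called in the same direction on wild type, which is 58.3% of the 1238 called there, and 18 were called in opposite directions. Of the 242 genes whose effects differed, 142 were called on Runx1-HET only, 53 on both in the same direction, 18 on both in opposite directions, 27 on wild type only and 2 on neither. In 106 of the 242 the sign was shared and the effect on Runx1-HET the larger. Of 17 tested genes reported as RUNX1 targets, 3 rose and 2 fell on Runx1-HET, where 6.69% and 8.18% of all genes did. The lower ones numbered 1 without ITD/Runx1-HET library 2 and 4 without Runx1-HET library 4. The myosin gene Myh10, which RUNX1 is known to repress in megakaryocytes, rose more on Runx1-HET (3.01 ± 0.28; difference 1.49 ± 0.39, edgeR adjusted p = 0.041). That difference lost its call in 13 other settings, among them the sex term (adjusted p = 0.107), the replicate block (0.0503) and the fit without FLT3-ITD library 2 (0.107). The part of RUNX1 in the change of Myh10 was not tested.

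**Figure D5:**
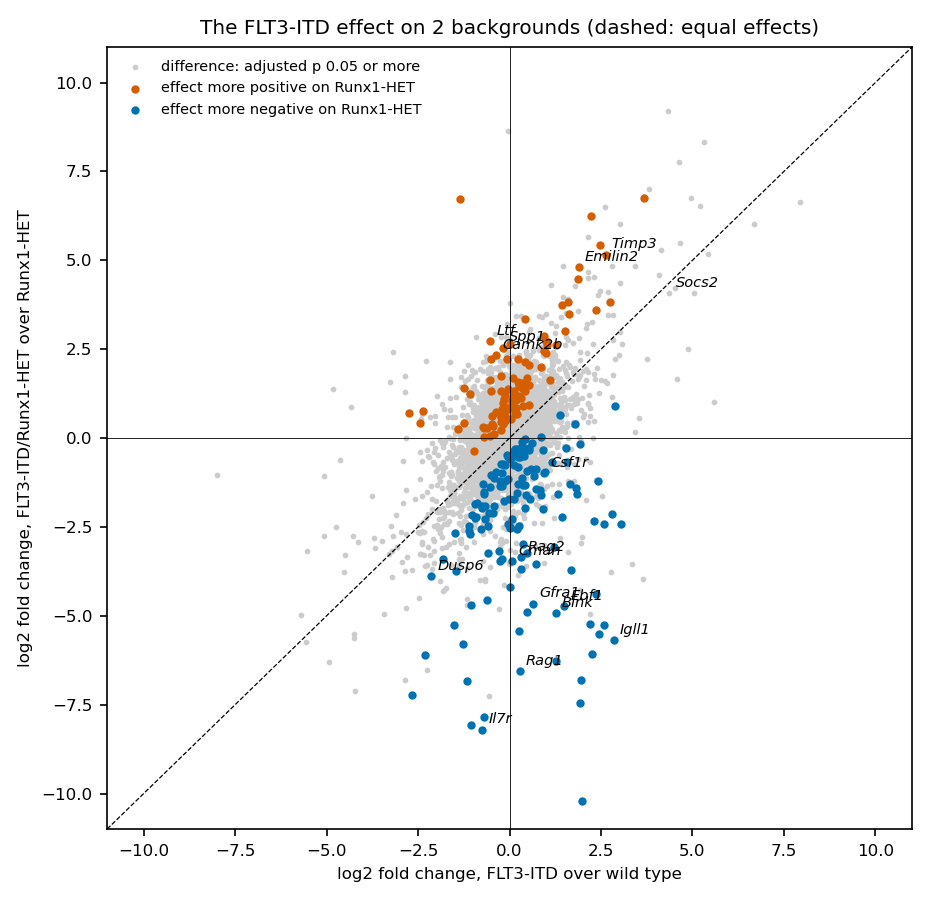
Log2 fold change with FLT3-ITD on wild type (x axis) and on Runx1-HET (y axis) for all tested genes; the dashed line marks equal effects. The 93 orange and 149 blue genes passed the test of the difference; Igll1, Ebf1, Blnk and Rag1 lie below the line, and Timp3, Emilin2 and Ltf above it.

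Some genes rose on Runx1-HET with no call on wild type. Ndrg2, a differentiation-linked gene of unsettled biochemical role, was at 78.2, 74.9, 81.5 and 74.2 CPM in ITD/Runx1-HET and 22.9, 15.2, 16 and 12.6 CPM in Runx1-HET (2.21 ± 0.15). It was at 21.9 ± 2.49 CPM in FLT3-ITD and 18.8 ± 1.7 CPM in wild type (SD, n = 4 each), and the difference was 2.0 ± 0.21 (edgeR adjusted p = 5.9e-07). Spp1, or osteopontin, was at 22.8, 22.3, 27.6 and 34.6 CPM against 6.31, 4.38, 4.64 and 3.18 CPM, and at 5.06 ± 0.556 and 5.77 ± 1.3 CPM in FLT3-ITD and wild type (difference 2.72 ± 0.31, adjusted p = 2.5e-06). In both, the 4 ITD/Runx1-HET libraries were the highest of the 16. Ltf (difference 3.24 ± 0.59) and Camk2b (2.70 ± 0.56) also had an effect on wild type that did not pass, but single wild-type libraries (28.6 CPM for Ltf, 13 CPM for Camk2b) overlapped ITD/Runx1-HET. Timp3 and Emilin2 rose on both backgrounds and more on Runx1-HET (differences 2.54 ± 0.60 and 2.91 ± 0.57, adjusted p = 0.032 and 0.0033). The difference for Timp3 lost its call in 11 other settings, the sex term (0.0561) among them.

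The effect also differed from that on NHD13, where FLT3-ITD changed 898 genes (6.24%). Of the 2140 genes, 463 (21.6%, or 51.6% of the 898) were called in the same direction there and 29 in the opposite one, and the difference of the effects passed for 532 genes (3.7%), 221 higher (1.54%) and 311 lower (2.16%) on Runx1-HET. Timp3 rose on Runx1-HET and fell on NHD13 (-1.53, edgeR adjusted p = 0.0085), a difference of 6.69. Wfdc17, a secreted protein of phagocytes, fell on Runx1-HET (-2.57 ± 0.21) and rose on NHD13 (1.09), a difference of -3.67. Bcl2 likewise rose on Runx1-HET and fell on NHD13 (-0.81), whereas Ifitm1 rose by 3.82 and 3.84 on the 2 backgrounds.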

How the data were processed

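RNA of hematopoietic progenitors was sequenced after Clontech amplification, per the labels' protocols. The tables deposited by the authors hold 1 unnormalized read count for each gene and library. STAR 3.0.4, Subread and featureCounts 1.4.5 are named in the submitters' processing notes. The genome build and the use of strand are not given in the sources used here, so overlapping and antisense genes cannot be told apart. The 24 libraries at 14 days, 4 for each of 6 genotypes, were fitted together with edgeR 4.0.16 in R 4.3.3 (TMM scaling, its default filter on low counts, robust quasi-likelihood F test, 1 mean per genotype). Benjamini-Hochberg adjusted p-values cover all 14394 genes, and the threshold was 0.05. A standard error is the log2 fold change over the square root of F. The common coefficient of variation was 0.164. The comparisons on the 3 backgrounds share no library. Depth limits low genes: where a group had 0 counts, the bound uses a floor of 3 counts over the group, and counting intervals (95%) cover counting error only. In data simulated for the main comparison over 14175 genes, 67.2, 92.5 and 97% of changes of 1.5, 2 and 4-fold were recovered. For the difference between Runx1-HET and wild type over 14187 genes the shares were 32.8, 70.1 and 100%. Each comparison had a single simulated set, with changes placed in 67, 67 and 66 genes. Only genes whose log2 mean CPM over the 24 libraries was at least 2 were changed, so these shares do not cover genes of lower level. Library pairs within the 2 main groups differed by more than sampling noise (chi-square over degrees of freedom 9.11 to 29.9). The members and the 31 gene lists were chosen with earlier results of these data known. Genes were named by rule: Flt3 and Runx1, the 12 highest and 12 lowest fold changes among passing genes whose mean log2 CPM reached 2 and whose groups do not overlap, the 12 smallest adjusted p in each direction, up to 4 passing members per list and direction, and the 6 highest and lowest of each difference. Other list members were named after their values were seen. Some named genes are not reported here. Of 576 list entries 521 were tested. Positions are from GENCODE M21 on GRCm38 and promoters from RefSeq on GRCm38.p6. Alternatives were DESeq2 1.42.0, RLE factors, other filters, a replicate block, a sex term, a fit of only the groups compared and leaving out each library. The libraries of newborn mice were not used here.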

Additional observations from a re-analysis of the deposited data

Results flagged for a closer look

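Single libraries stood apart from the other 3 of their group in 19 of the 302 groups of 4 looked at (6.29%), where chance flags about 1 in 20; the gap to the nearest library was, relative to the group's range, above Dixon's 95% critical value. Values are CPM. In ITD/Runx1-HET the library apart was the highest for AI593442 in library 2 (149), Bcl6 in library 2 (0.674), Ccr9 in library 1 (0.708), Dntt in library 2 (145), Il1rl1 in library 3 (0.449), Mfsd2b in library 3 (4.78), Prg2 in library 1 (7.98) and Trbc1 in library 2 (0.0613). In Runx1-HET the library apart was the highest for AI593442 in library 4 (8.7), Etv5 in library 2 (32.3), Mcpt8 in library 2 (3.55), Meis1 in library 3 (672), Parm1 in library 3 (20.4), Psmb8 in library 1 (294) and Rasgrp1 in library 2 (0.0461). In Runx1-HET the library apart was the lowest for Cd93 in library 4 (339). In ITD/Runx1-HET the library apart was the lowest for Cdk6 in library 1 (970), Cish in library 1 (107) and Socs2 in library 3 (315). The values for Rasgrp1 and Trbc1 rest on 1 count each. None of these libraries was left out of the results above.

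The effect of FLT3-ITD differed between the Runx1-HET and the wild-type background, by edgeR's test of the difference itself (adjusted over all genes), for 49 of the 151 genes looked at. Over all tested genes 1.68% passed that test, and 12 of the 49 were looked at because their differences were the highest or lowest, so the naming rule sets part of the count. Values are log2 differences, Runx1-HET minus wild type. The effect was more positive on Runx1-HET for Bhlhe40 (1.22), Camk2b (2.70), Clnk (1.34), Dnajc6 (1.74), Emilin2 (2.91), Fut8 (0.54), Ifitm1 (1.07), Il18r1 (1.85), Il2ra (4.0), Ltf (3.24), Mboat2 (2.21), Myh10 (1.49), Ndrg2 (2.0), Pim2 (1.51), Spp1 (2.72), Tcrg-C1 (3.06) and Timp3 (2.54). It was more negative for Apoe (-1.32), Blk (-9.39), Blnk (-6.18), C1qb (-2.76), Ccnd2 (-0.51), Ccr9 (-3.79), Cd33 (-1.64), Cd79a (-8.76), Cd93 (-0.54), Cmah (-3.53) and Cnn3 (-0.84). The more negative ones also included Csf1r (-1.94), Dntt (-3.19), Dusp6 (-1.75), Ebf1 (-6.22), Egfl7 (-0.56), Gata1 (-1.70), Gfra1 (-5.30), Il12a (-0.91), Il7r (-7.46), Mfsd2b (-2.07), Mzb1 (-4.20) and Rag1 (-6.84). The more negative ones also included Rag2 (-3.67), Sdc4 (-2.30), Sstr2 (-1.36), Tcf4 (-0.40), Tek (-1.63), Trbc1 (-3.96), Trbc2 (-4.56), Vcam1 (-3.35) and Wfdc17 (-1.78). Blk had 0 counts in ITD/Runx1-HET, so its fitted difference depends on the prior count. Of the 4 FLT3-ITD libraries, library 2 was the highest for Cd79a, Ebf1, Blnk, Rag1 and Rag2. Of the 49 differences 10 lost their call in at least 1 of the 23 other settings: Tcf4 in 17, Il12a and Trbc1 in 15, Ccnd2 and Myh10 in 13, Timp3 in 11, Bhlhe40 in 10, Fut8 in 7, Il2ra in 4 and Egfl7 in 1. With a sex term Tcf4, Ccnd2, Myh10, Timp3 and Bhlhe40 did not pass, and with the replicate block Il12a, Trbc1 and Myh10 did not. Without FLT3-ITD library 2, Tcf4, Il12a, Trbc1, Ccnd2, Myh10, Timp3, Bhlhe40 and Fut8 did not pass.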

How the results depend on the processing

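The main comparison called 2140 genes and between 1904 (no filter on low counts) and 2370 (DESeq2) under the other settings, with no direction reversed among the results. Leaving out 1 library at a time gave 1611 (without ITD/Runx1-HET library 2) to 2450 genes (without ITD/Runx1-HET library 3). The wild-type comparison called 1238 genes, 691 with a sex term and 818 with only the groups compared, and 767 to 1738 with a library left out (wild-type library 3 and wild-type library 1). On NHD13 the range was 624 to 880. The difference between Runx1-HET and wild type called 242 genes and 374 with DESeq2. With a library left out it called 168 (FLT3-ITD library 2) to 401 (ITD/Runx1-HET library 3), and that from NHD13 called 434 to 669. The cause of these shifts was not tested. Replicate numbers gave no clear pairing: same-numbered libraries of the 2 main groups correlated at -0.00, 0.09, 0.22 and 0.15 over 10028 genes. The same-numbered Runx1-HET library was the best correlated for numbers 3 and 4 and not for 1 and 2. With the replicate block 2146, 1203 and 876 genes were called on Runx1-HET, wild type and NHD13, and 223 and 513 for the differences. Of the 154 named genes 27 lost their call in at least 1 setting, Cebpd in 11 and Irf1, Parp14 and Psmb8 in 9. With only the groups compared 5 neutrophil markers rose (1 in the full fit) and 2 T- and NK-cell markers fell (4 in the full fit). The other T- and NK-cell markers that fell in the full fit were left out there by the filter on low counts. Of all 13320 genes tested in that fit 932 rose and 1136 fell.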
